A study of Mus musculus with 8 samples.

Results

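Replication-dependent histone genes encode the linker histone H1 and the core histones H2A, H2B, H3 and H4 that package newly made DNA. The array's gene annotation gave 51 such genes, chosen by their symbols alone, measured by 56 of the 25697 probes of the table. They were 6 H1 genes, 14 H2A genes, 12 H2B genes with 14 probes, 9 H3 genes with 12 probes and 10 H4 genes. The table as a whole covered 16593 genes with a symbol. The study profiled granulocyte-macrophage progenitors (GMP), the bone marrow progenitors of granulocytes and monocytes, which were sorted as lineage-low, c-Kit+, Sca-1- cells with high CD34 and high CD16/32. The DKO group came from mice knocked out for both SSB1 and SSB2, related proteins that bind single-stranded DNA and are the products of Nabp2 and Nabp1, and the control group came from WT mice. All mice were female C57BL/6, and each group had 4 arrays. The labels give neither age, nor the promoter or driver used to delete the genes, nor whether the 4 samples of a group were separate mice. The p-values therefore cover only how much these particular samples varied, which could be technical variation.

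Cells make most of their histone protein during S phase, when the clustered replication-dependent genes are switched on together at small nuclear bodies that hold the factor NPAT. Their mRNAs usually have no introns and end in a conserved stem-loop in place of a poly(A) tail. The stem-loop is bound by SLBP and the end is cut with the help of the U7 small nuclear RNA. Related genes outside the clusters encode replication-independent variants, whose mRNAs are polyadenylated and made through the whole cell cycle. Some clustered genes are also known to give polyadenylated transcripts, in particular in cells that leave the cycle. The labelled cRNA came from the Illumina TotalPrep kit, which primes on poly(A) tails, so a histone signal on this array need not follow the amount of stem-loop mRNA. Many copies within a family are nearly identical in sequence, and the probe sequences were not used here, so signals of sister genes may share a source.

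Against this background few histone genes passed the test, and they went both ways. H1f2, H4c6 and H4c9 rose by 2.04-fold to 2.13-fold in DKO GMP relative to control GMP. H1f5, H2ac18 and H2bc4 fell, by 1.75-fold to 2.55-fold. The other 39 genes tested did not pass the threshold, a limma p-value of 0.05 after Benjamini-Hochberg adjustment over all 10856 tested probes. A probe was tested when it was detected above background on at least 4 of the 8 arrays, which held for 47 of the 56 histone probes and 45 of the 51 genes. 44 probes were detected on all 8 arrays and 7 on none. The share of tested probes past the threshold over the whole array was 22.7%, made up of 12.4% lower and 10.4% higher in DKO, so 3 of 47 histone probes in each direction was a share no larger than that background. With arrays aligned by their medians in place of quantiles, which moved the median of all tested probes by -0.40, 18 histone genes were lower and 0 higher, where 21.5% of all tested probes were lower and 148 probes higher. H1f2, H4c6 and H4c9 then had differences of 0.65, 0.65 and 0.71 and did not pass (limma adjusted p = 0.0992, 0.0943 and 0.0660). Fewer cells of a type and less RNA per cell cannot be told apart in such bulk samples. All 4 DKO arrays lay below all 4 control arrays on 3 histone probes and above them on 3, as they did on 14.5% and 13.1% of all tested probes.

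Over all 56 histone probes, detected or not, the median difference was -0.04 on the log2 scale (DKO minus control, as for all differences here), and 33 of them were negative. The median over the whole table was 0.01. By family the median difference was -0.08 for H1, 0.01 for H2A, -0.40 for H2B, -0.02 for H3 and 0.16 for H4. H2B stood lowest, with 12 of its 14 probes negative, and H4 highest, with 4 of its 10 probes negative. With arrays aligned by medians the family medians were -0.022 for H1, 0.05 for H2A, -0.87 for H2B, -0.38 for H3 and -0.37 for H4. The median of all tested probes was -0.40 under that alignment, near the H3 and H4 values. The direction of H4 thus flipped where the tested probes as a whole had moved down. H2B was lowest under both, and H3 was at 0.02 when background was not corrected. The members of a family shared arrays, and often sequence, so they are not independent of each other, and these medians carry no test.

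**Figure D1:**
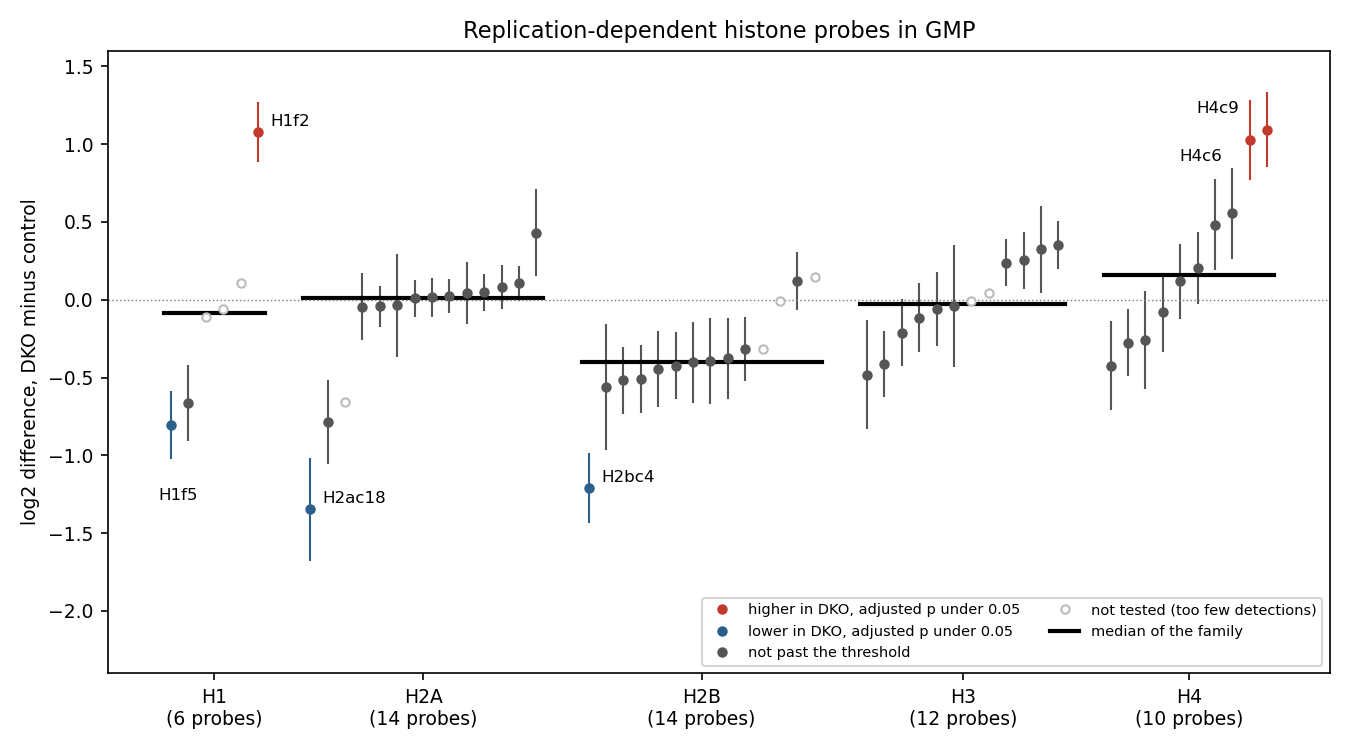
Log2 difference between 4 DKO and 4 control GMP arrays for each of the 56 histone probes, sorted within family, with the moderated standard error for the 47 tested probes. Black bars are family medians (-0.08, 0.01, -0.40, -0.02 and 0.16 from H1 to H4), and the 6 probes past the threshold are coloured and named. The H4 median turned negative, at -0.37, with arrays aligned by medians, where the median of all tested probes was -0.40.

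Linker histone genes passed the test in both directions. H1 binds where DNA enters and leaves the nucleosome and helps chromatin to fold. H1f2, one of the somatic linker histones, had normalized log2 intensities of 10.60, 10.59, 10.40 and 10.85 on the DKO arrays, against 10.06, 9.56, 9.32 and 9.20 on the control arrays. Every DKO array lay above every control array. The means were 10.61 ± 0.18 in DKO and 9.53 ± 0.38 in control (SD, n = 4 each), a 2.11-fold rise (log2 difference 1.08, SE 0.19, limma adjusted p = 0.00304). H1f5, another somatic H1, read 5.68, 6.19, 6.65 and 6.58 in DKO and 7.29, 7.06, 6.74 and 7.22 in control. The groups did not overlap, although DKO 3 and control 3 differed by little. H1f5 averaged 6.27 ± 0.45 in DKO and 7.08 ± 0.24 in control (SD, n = 4 each), a 1.75-fold fall (log2 difference -0.81, SE 0.22, limma adjusted p = 0.0235). Without background correction the difference was -0.36 and still passed (limma adjusted p = 0.0237). This call did not pass without control 1, control 2 or control 4, at limma adjusted p = 0.0698, 0.0596 and 0.0627. H1f1 had a difference of the same sign that did not pass (-0.67, SE 0.24, limma adjusted p = 0.0733), with the low values on DKO 2 and DKO 3, at 5.52 and 5.35, and 6.52 and 6.22 on the other DKO arrays, against 6.38 to 6.77 on the control arrays. It passed under 5 of 18 alternatives, among them without DKO 1, where the difference was -0.87 (limma adjusted p = 0.0147). The remaining H1 genes, H1f3, H1f4 and the testis-specific H1f6, were not detected on any array.

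The promoters of H1f2 and H1f5 are shown because these members of one family changed in opposite directions. Each sequence is the 250 bases before the annotated start from RefSeq (GRCm38.p6), 5′ to 3′ on the gene's strand. Both promoters lie on chromosome 13, H1f2 at chr13:23738557-23738806, plus strand, and H1f5 at chr13:21780626-21780875, minus strand. Capitals mark the letters searched for on both strands, which were TATAAA as the core of a TATA box, CCAAT as the site of NF-Y, the octamer ATTTGCAT and the H1 box AAACACA.
H1f2: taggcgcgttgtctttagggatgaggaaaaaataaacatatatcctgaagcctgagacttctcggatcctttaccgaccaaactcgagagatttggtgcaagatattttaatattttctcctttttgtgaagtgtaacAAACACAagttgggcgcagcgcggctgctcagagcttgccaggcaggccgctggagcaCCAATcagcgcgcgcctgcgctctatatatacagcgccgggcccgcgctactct
H1f5: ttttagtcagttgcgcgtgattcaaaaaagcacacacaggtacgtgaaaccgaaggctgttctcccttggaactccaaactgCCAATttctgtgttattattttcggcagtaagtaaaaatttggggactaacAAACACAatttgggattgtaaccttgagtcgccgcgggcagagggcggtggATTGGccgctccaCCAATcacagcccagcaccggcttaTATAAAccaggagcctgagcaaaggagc
The H1 box began at position -112 in H1f2 and at position -117 in H1f5, counted back from the start. It was in 5 of the 6 H1 promoters, and in 6.22% of all 27025 promoters of the table. CCAAT was in all 6 H1 promoters and in 34.5% of all promoters. So the pair that diverged had both motifs in this window, and in the searched letters they differed only in TATAAA, present in H1f5 and in 4 of the 6 H1 promoters, and in the number of CCAAT copies. H1f2 holds a run of alternating t and a near its start, which this search for exact letters did not count.

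The H2A genes fell into 9 probes with very strong signals and 5 with weak ones, a division at a mean raw intensity of 5000 that was chosen after the values were seen. H2A pairs with H2B in dimers that flank the H3 and H4 core of the nucleosome. The strong probes were those of H2ac7, H2ac10, H2ac11, H2ac12, H2ac15, H2ac20, H2ac21, H2ac22 and H2ac24. H2ac24 had the highest mean, with 14.63, 14.63, 14.66 and 14.61 on the DKO arrays and 14.61, 14.57, 14.60 and 14.65 on the control arrays. The groups overlapped almost fully. The means were 14.63 ± 0.02 in DKO and 14.61 ± 0.03 in control (SD, n = 4 each), with a log2 difference of 0.02 (SE 0.11, limma adjusted p = 0.904). The 9 differences ran from -0.04 to 0.10. Of these probes, 7 had raw intensities between 20223 and 29086, and even their lowest readings were 67.3% to 79.1% of the brightest probe on the same array. How far the scanner or the beads limit differences at that brightness was not tested. The other 2, H2ac11 and H2ac21, were less bright, with raw intensities of 8114 to 16045, and had differences of 0.04 and -0.04.

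Among the 5 weak H2A probes, 4 had a negative difference, and the median was -0.66. H2ac18 read 6.01, 5.68, 5.33 and 5.02 on the DKO arrays and 7.88, 6.79, 6.33 and 6.42 on the control arrays. No DKO array reached the lowest control array, and the probe was detected on 3 of the 4 DKO arrays and on 4 of 4 control arrays. H2ac18 averaged 5.51 ± 0.43 in DKO and 6.86 ± 0.71 in control (SD, n = 4 each), a 2.55-fold fall (log2 difference -1.35, SE 0.33, limma adjusted p = 0.0150). The size of this fall in a weak probe depended on the background correction, since the difference was -0.54 without it and -0.50 in the authors' processed values (limma adjusted p = 0.0335 and 0.0413). H2ac8 read 7.03, 6.40, 6.83 and 6.52 in DKO and 8.31, 7.44, 6.89 and 7.28 in control. Only DKO 1 overlapped the control values, lying above control 3, and the difference did not pass the threshold (-0.78, SE 0.27, limma adjusted p = 0.0592). It passed under 8 of 19 alternatives, at limma adjusted p from 0.00144 to 0.0477, among them without DKO 1 (0.0450) and without control 3 (0.0315). H2ac6 was detected on 3 control arrays and on no DKO array, so it was not tested. Its mean signal was at least 1.15-fold lower in DKO, but the groups overlapped. Control 3, where H2ac6 was not detected, read 4.58, against 4.74, 4.81, 4.88 and 4.58 on the DKO arrays. H2ac4 and H2ac1 differed by -0.04 and 0.43, and neither passed. H2ac4 had one of the widest spreads of any histone probe, with 7.76, 6.06, 6.38 and 7.28 on the DKO arrays.
The promoter of H2ac18 is shown as that of a histone gene that fell outside the H1 family (chr3:96245247-96245496, plus strand, GRCm38.p6), with the motifs as above in capitals.
H2ac18: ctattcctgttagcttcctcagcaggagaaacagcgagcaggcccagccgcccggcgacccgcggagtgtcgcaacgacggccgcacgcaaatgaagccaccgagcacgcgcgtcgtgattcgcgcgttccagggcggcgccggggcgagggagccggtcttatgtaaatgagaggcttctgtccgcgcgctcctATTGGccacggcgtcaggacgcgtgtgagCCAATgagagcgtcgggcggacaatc
It held CCAAT, which all 14 H2A promoters and all 11 H2B promoters held. It did not hold the exact octamer ATTTGCAT, the letters known from H2B promoters as an Oct-1 site, which were in 6 of 14 H2A promoters, 6 of 11 H2B promoters and 1.61% of all promoters.

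The H2B probes were the family with the most even direction. Of the 11 tested, 10 were negative, but 1 passed the threshold. That gene was H2bc4, with 9.17, 8.39, 9.09 and 8.38 on the DKO arrays and 10.28, 10.19, 9.62 and 9.79 on the control arrays. All DKO values were below all control values. H2bc4 averaged 8.76 ± 0.43 in DKO and 9.97 ± 0.32 in control (SD, n = 4 each), a 2.31-fold fall (log2 difference -1.21, SE 0.23, limma adjusted p = 0.00405). Its other probe was detected on 1 control array and no DKO array and was not tested. H2bc4 and H2bc6 were the only 2 of the 51 genes with more than 1 RefSeq transcript, 2 for H2bc4 and 3 for H2bc6, and the probe of H2bc6 was not detected on any array.

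H2bc11, the H2B probe with the highest mean, read 10.65, 10.11, 9.94 and 10.20 in DKO and 10.95, 10.93, 10.11 and 10.94 in control. Control 3 lay with the DKO arrays and the other 3 control arrays above all of them. The means were 10.22 ± 0.30 in DKO and 10.73 ± 0.41 in control (SD, n = 4 each), and the difference did not pass (-0.51, SE 0.22, limma adjusted p = 0.119). H2bc3, H2bc7, H2bc8, H2bc9, H2bc12, H2bc14 and H2bc15 likewise had differences between -0.56 and -0.38 without passing. The probes of H2bc18 were at 0.12 and -0.32, neither past the threshold. H2bc1, a testis form, was not detected on any array. Without control 3, the H2B genes past the threshold and lower in DKO were H2bc3, H2bc4, H2bc7 and H2bc11, and without DKO 1 they were H2bc4, H2bc11, H2bc12 and H2bc14. H2bc4 and H2bc11 were in both. At an unadjusted p under 0.05, 3 H2B genes were lower, H2bc3, H2bc4 and H2bc11, and none was higher. The share of all tested probes at that unadjusted threshold is not given here. No excess over background can therefore be read from this count or from those at the same threshold below.

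By their older symbols 44 of the genes belong to the Hist1 cluster, on mouse chromosome 13, and 7 to the Hist2 cluster, on chromosome 3. The median difference, taking the brightest probe of each gene, was -0.05 in Hist1 and 0.10 in Hist2. H2A and H2B genes often sit head to head and share the stretch between their starts. Among neighbouring member genes with known strands there were 8 divergent pairs, 6 of them an H2A with an H2B gene. Divergent here means adjacent, on opposite strands and pointing apart. The distance between the starts was not measured, so a shared stretch was not established. In 4 of the 6, the H2A probe was within 0.1 of no difference while the H2B probe was negative. These were H2ac11 and H2bc11 (0.04 and -0.51), H2ac12 and H2bc12 (-0.04 and -0.39), H2ac15 and H2bc15 (0.02 and -0.38), and H2ac7 and H2bc7 (0.08 and -0.42). All 4 of these H2A probes belonged to the very bright ones. H2ac8 and H2bc8, whose H2A probe was weak, were at -0.78 and -0.56. H2ac1 and H2bc1 were both positive, at 0.43 and 0.15, with H2bc1 not detected on any array. None of the tested probes in these 6 pairs passed the threshold, and the difference between partners was not tested. H2bc4, the H2B gene that passed, had no promoter entry and so no known strand here. It could not enter a pair, whatever its neighbour.

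H3 forms the core tetramer with H4 and carries many of the modified residues of chromatin. In the H3 family none of the 10 tested probes passed by limma, and at an unadjusted p under 0.05 only H3c14 was higher. H3c13, the H3 probe with the highest mean, read 12.09, 11.69, 11.99 and 12.19 in DKO and 11.83, 11.78, 11.50 and 11.91 in control. DKO 1, DKO 3 and DKO 4 lay above all control arrays and DKO 2 lay among them. The means were 11.99 ± 0.21 in DKO and 11.75 ± 0.18 in control (SD, n = 4 each), with a log2 difference of 0.24 (SE 0.15, limma adjusted p = 0.280). The 2 probes of H3c14 disagreed, at 0.35 (SE 0.15, limma adjusted p = 0.118) and -0.41 (SE 0.21, limma adjusted p = 0.182). H3c8 and H3c10 were at 0.25 and 0.33, and H3c1, H3c3, H3c4, H3c6 and H3c7 between -0.48 and -0.04. H3c7 had 2 further probes, which were not detected on any array. Without control 3, the H3c14 probe at -0.41 was past the threshold and lower in DKO.

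H4, the least variable of the core histones in sequence, is encoded by many copies of the same protein. Its members ranged from -0.42 to 1.09 in their difference. H4c6 read 11.53, 10.46, 11.20 and 10.84 on the DKO arrays and 10.16, 10.15, 9.37 and 10.25 on the control arrays. H4c9 read 11.59, 10.61, 11.30 and 11.10 in DKO and 10.34, 10.21, 9.46 and 10.24 in control. In both genes every DKO array was above every control array, DKO 2 was the lowest DKO array and control 3 the lowest control array. H4c6 averaged 11.01 ± 0.46 in DKO and 9.98 ± 0.41 in control (SD, n = 4 each), a 2.04-fold rise (log2 difference 1.03, SE 0.26, limma adjusted p = 0.0163). H4c9 averaged 11.15 ± 0.41 in DKO and 10.06 ± 0.41 in control (SD, n = 4 each), a 2.13-fold rise (log2 difference 1.09, SE 0.24, limma adjusted p = 0.00958). Both probes gave nearly the same reading on each array, apart by at most 0.26, so it cannot be told whether they report 2 transcripts or 1. Sister pairs in other families were about as close. H2ac11 and H2ac21 were apart by at most 0.12, H2bc11 and H2bc7 by 0.21, and H3c4 and H3c6 by 0.27. For them, too, it cannot be told.

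The remaining H4 genes ran from below 0 to above it, and none passed the threshold. H4c11 and H4c2 were at 0.55 and 0.48, and H4c4 and H4c12 at 0.20 and 0.12. H4c14, H4c3, H4c18 and H4c8 were at -0.08, -0.26, -0.28 and -0.42. H4c11 passed without DKO 2 as a higher gene, and H4c18 passed without control 3 as a lower one. The promoters of H4c6 (chr13:23551669-23551918, minus strand, GRCm38.p6) and H4c9 (chr13:22041363-22041612, minus strand, GRCm38.p6) are given because these genes rose together, with the motifs as above in capitals.
H4c6: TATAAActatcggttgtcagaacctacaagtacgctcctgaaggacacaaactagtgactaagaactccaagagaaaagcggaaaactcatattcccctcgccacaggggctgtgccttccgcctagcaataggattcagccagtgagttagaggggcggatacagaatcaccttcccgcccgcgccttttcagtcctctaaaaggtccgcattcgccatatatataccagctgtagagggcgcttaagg
H4c9: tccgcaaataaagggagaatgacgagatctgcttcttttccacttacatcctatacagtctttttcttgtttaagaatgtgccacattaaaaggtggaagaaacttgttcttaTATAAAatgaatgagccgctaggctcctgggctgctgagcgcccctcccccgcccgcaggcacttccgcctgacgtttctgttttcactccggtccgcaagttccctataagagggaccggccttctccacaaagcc
Both lacked CCAAT, the octamer and the H1 box in this window, as far as these exact letters go. CCAAT was in 2 of the 9 H4 promoters, unlike the H1, H2A and H2B promoters, all of which held it. TATAAA began at position -250 in H4c6 and at position -137 in H4c9, and was in 5 of 9 H4 promoters and 3504 of all 27025. Nearer the start, both sequences hold other runs of t and a, which this search for exact letters did not count. Promoters were given for 47 of the 51 genes, and H2bc4, H3c1, H3c7 and H4c14 had no entry.

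**Figure D2:**
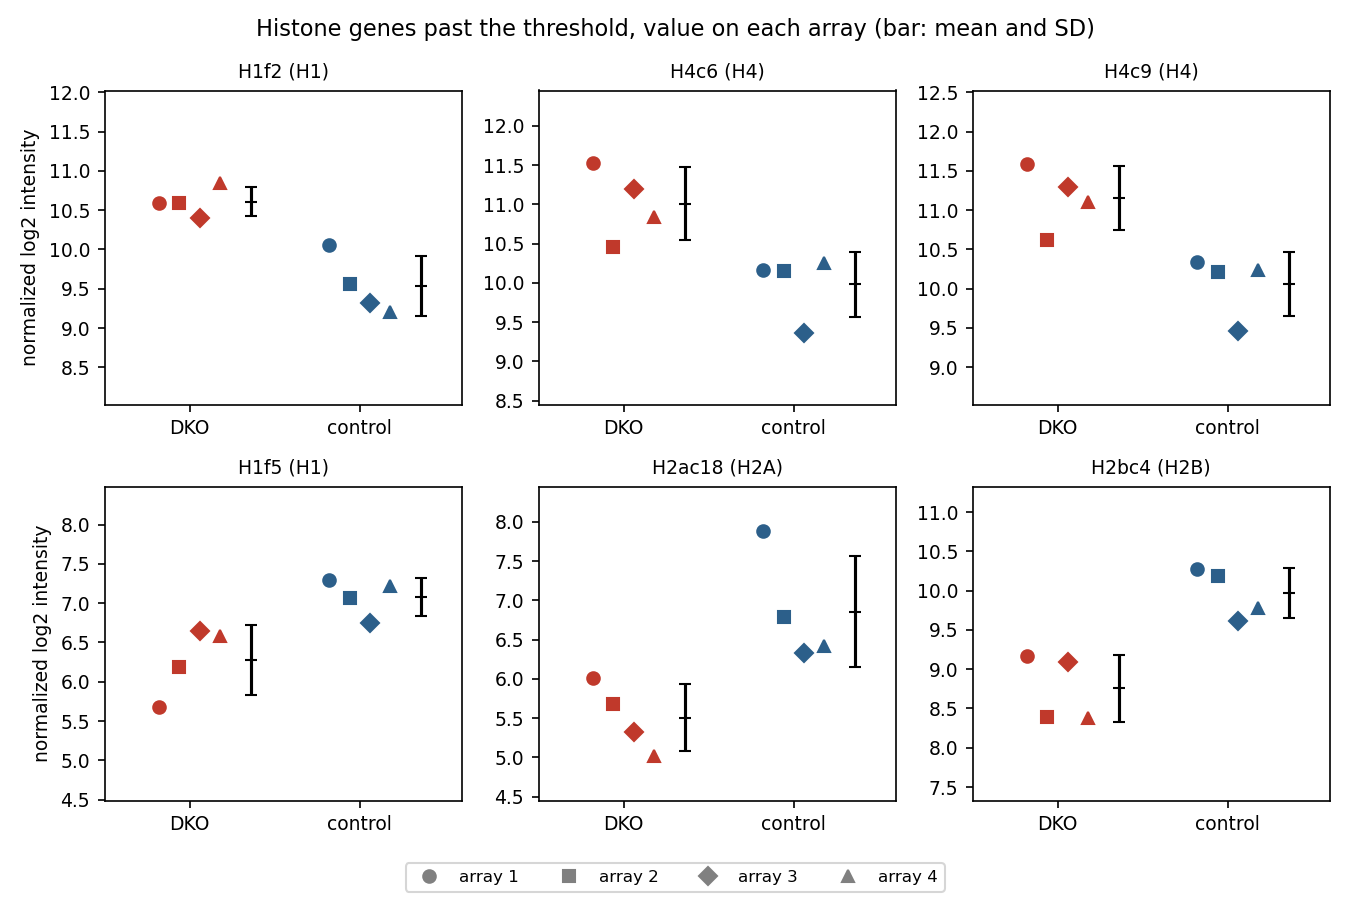
Normalized log2 intensity on each of the 4 DKO and 4 control arrays for the 6 histone genes past the threshold, with the group mean and SD beside the points and the array number as the marker shape. The top row holds H1f2, H4c6 and H4c9, higher on every DKO array, and the bottom row H1f5, H2ac18 and H2bc4, lower on every DKO array. All panels span 4 log2 units.

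The spread between arrays of one group was wider for histone probes than for the typical tested probe. The median SD over 4 arrays of the 47 tested histone probes was 0.36 in DKO and 0.37 in control, against 0.26 and 0.18 for all tested probes. In DKO 31 of the 47, and in control 37 of the 47, were above that median over all tested probes, and 21 in DKO and 35 in control were above its upper quartile of 0.39 and 0.25. By family the median SD was 0.45 in DKO and 0.24 in control for H1, 0.11 and 0.22 for H2A, 0.39 and 0.40 for H2B, 0.30 and 0.37 for H3, and 0.48 and 0.41 for H4. The narrow H2A spread came with the 9 very bright probes, whose median SD was 0.10 in DKO and 0.17 in control. Without them the median over the other 38 was 0.42 in DKO and 0.38 in control. The widest single spreads were in H3c3 in DKO, with an SD of 0.94, and in H3c7 in control, with an SD of 0.88. H3c3 read 7.97, 5.98, 6.59 and 7.72 in DKO, with DKO 1 and DKO 4 high, and H3c7 read 8.23, 6.89, 6.14 and 6.80 in control, with control 1 high.

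**Figure D3:**
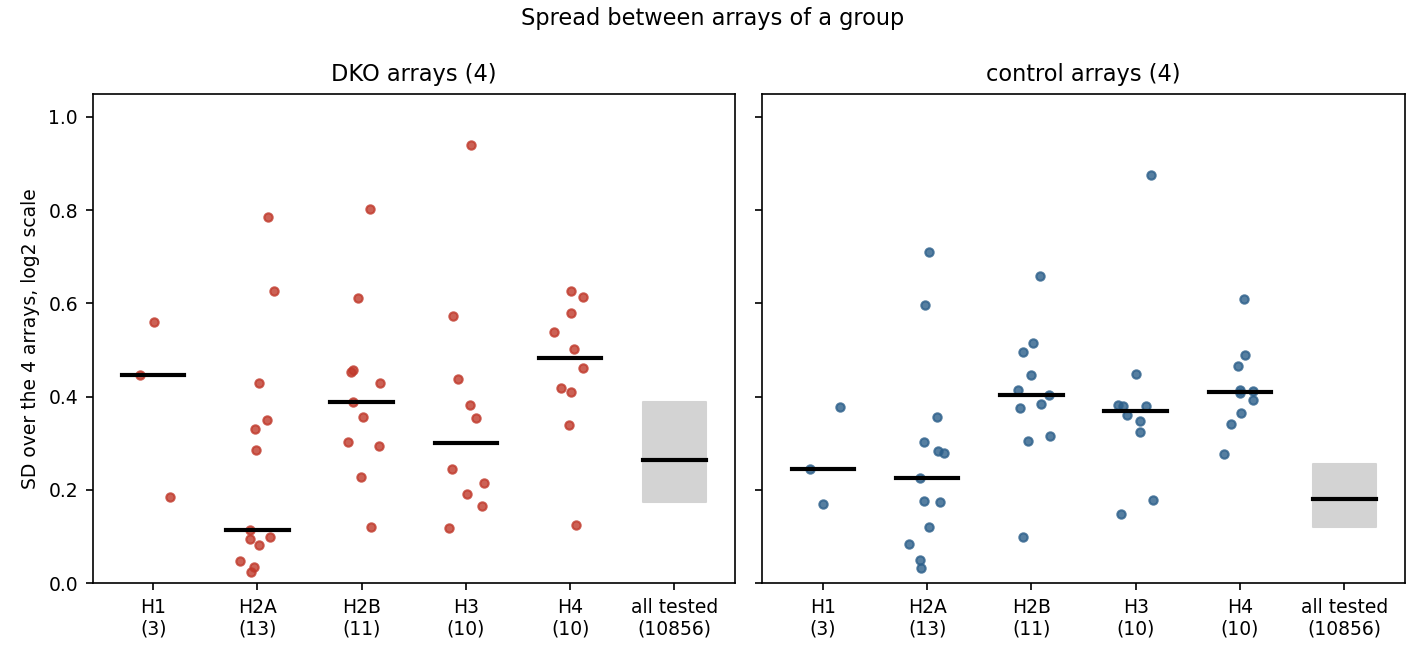
SD over the 4 DKO arrays (left) and the 4 control arrays (right) for each tested histone probe by family, with family medians as black bars. The grey box is the middle range between quartiles of all 10856 tested probes and its bar their median, 0.26 in DKO and 0.18 in control.

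This spread was shared between genes. Control 3 was the lowest of the control arrays on 40 of the 47 tested histone probes (85.1%), while it was lowest on 29.2% of all tested probes. DKO 1 was the highest of the DKO arrays on 35 of the 47 (74.5%), against 28.9% of all tested probes, and DKO 2 the lowest on 27 (57.4%), against 29.3%. The median deviation from each probe's own mean over the 8 arrays was 0.28, -0.30, -0.24 and -0.01 on DKO 1 to DKO 4 and 0.27, 0.02, -0.40 and 0.20 on control 1 to control 4. H4 went furthest, at 0.65 on DKO 1 and -0.73 on control 3. Within H2A the 9 very bright probes stayed between -0.06 and 0.15, while the 4 weak probes tested had 0.41 and -0.59 on DKO 1 and DKO 2, and 0.69 and -0.28 on control 1 and control 3. The deviations of a list of other S phase genes, mostly of DNA replication, were -0.15, -0.05, -0.06 and 0.02 on DKO 1 to DKO 4 and 0.0025, 0.03, 0.12 and -0.02 on control 1 to control 4. Their sign was opposite to that of the histone probes on DKO 1, DKO 4, control 3 and control 4 and the same on the other arrays. On DKO 4, control 1, control 2 and control 4 at least 1 of the 2 values lay near 0, so the signs there carry little weight. With arrays aligned by medians the histone value on DKO 1 was itself negative, at -0.33.

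The low position of control 3 was seen under each scaling looked at. It was lowest among the controls on 38 of the 47 probes when arrays were aligned by their medians and on 41 in the raw intensities. The high position of DKO 1 was not. In the raw intensities DKO 1, the dimmest array, was lowest of the DKO arrays on 33 of the 47 histone probes (70.2%) and on 98.0% of all tested probes, and with arrays aligned by medians it was highest on 7, all of them H2A probes. Its mean raw intensity was 380, against 547 to 622 on the other DKO arrays and 605 to 736 on the control arrays. Leaving out control 3 gave 9 histone genes lower in DKO, and leaving out DKO 1 gave 8, against 3 with all arrays. Of all tested probes 9.72%, 12.5% and 12.4% were lower in these 3 fits. The part of these arrays in the histone differences was not tested further.

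**Figure D4:**
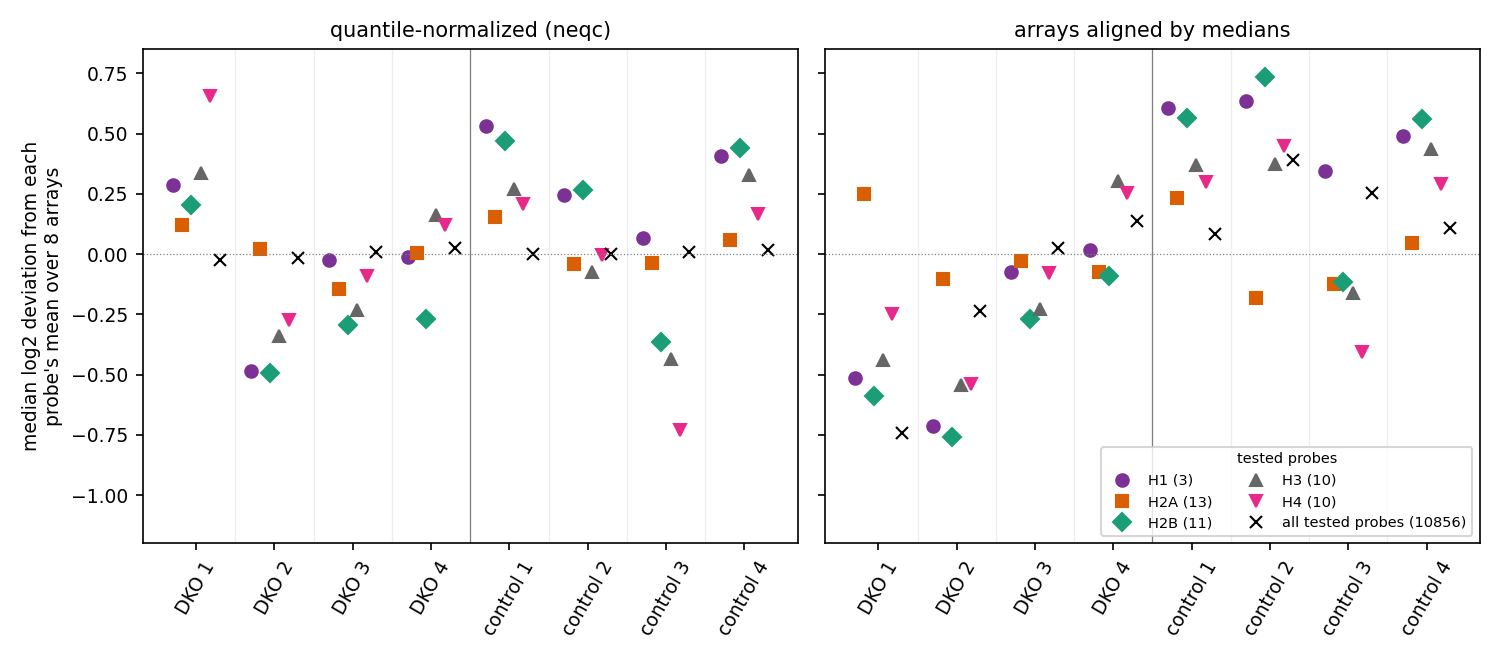
Median deviation of the tested probes of each histone family from their own means over 8 arrays, on each DKO array (left of the line) and control array (right of it), after quantile normalization and with arrays aligned by medians. Control 3 was the lowest control array in H2B, H3 and H4 in both panels, while DKO 1 was above 0 in every family in the left panel. In the right panel DKO 1 was below 0 in every family but H2A, at 0.25, and all tested probes (crosses) were also low on it.

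Of the replication-independent histone variants 9 genes were on the array and 8 were tested. H1f10, Macroh2a1 and H3f3a fell by 1 probe each, none rose and 5 did not pass, where 15.0% of all tested genes fell and 11.8% rose. At an unadjusted p under 0.05, H3f3b was higher. The median difference of the list over all its probes was 0.03, beside 0.01 for the whole table. H1f10, a linker histone encoded outside the clusters, averaged 5.24 ± 0.35 in DKO and 6.81 ± 0.11 in control (SD, n = 4 each), with a log2 difference of -1.57 (SE 0.18, limma adjusted p = 0.000241). Its other probe differed by -0.54 and did not pass (limma adjusted p = 0.0935). Macroh2a1, which encodes the large H2A variant of repressed chromatin, differed by -0.86 (SE 0.25, limma adjusted p = 0.0332). H3f3a and H3f3b encode the same H3.3 protein, and the probe of H3f3a that passed differed by -0.67 (SE 0.13, limma adjusted p = 0.00562), its other probe by 0.35 and H3f3b by 0.36, with neither of these past the threshold.

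Of the genes that switch on histone genes or process their mRNA 32 were on the array and 25 were tested. By at least 1 probe 6 rose (24.0%) and 2 fell (8.0%), where 11.8% of all tested genes rose and 15.0% fell, with a median difference of 0.14 over all probes of the list. The cyclin E genes Ccne2 and Ccne1, partners of the kinase CDK2 that activates NPAT, rose by 1.25 (SE 0.19, limma adjusted p = 0.00155) and 1.01 (SE 0.17, limma adjusted p = 0.00204) on the log2 scale. Ccne2 was detected on 4 of 4 DKO arrays and 1 of 4 control arrays. Cstf3, a subunit of the cleavage stimulation factor, rose by 0.84, and Ncbp2, the small subunit of the nuclear cap-binding complex, by 0.67 (limma adjusted p = 0.00362 and 0.00462), each by 1 of its probes. Their other probes were at -0.02 for Cstf3 and 0.19 for Ncbp2 and did not pass. The other risers were Ncbp1 and Upf1, the last by 1 of 3 probes with the others at -0.16 and 0.05, and those that fell were Tut7, a uridylyl transferase, and Lsm10, a part of the U7 particle, all 4 named after their values were seen. Slbp, named for the same reason, was not detected on any array.

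No gene of the histone chaperone and acetyltransferase list passed by limma, of 17 tested out of 19 on the array. At an unadjusted p under 0.05, 2 were higher and 0 lower, again without the share of all tested probes to set beside them. Nasp, a chaperone of H1 and H3 with H4, came closest with 0.40 (SE 0.14, limma adjusted p = 0.0581) on 1 probe and 0.14 and -0.06 on its others, followed by Hira, which deposits H3.3, with 0.75 (SE 0.27, limma adjusted p = 0.0710). Nap1l4 and Daxx, also chaperones, differed by -0.22 and 0.24. The median difference of this list was 0.07.

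Of 34 S phase genes on the array 31 were tested. Among them 1 rose (3.2%) and 4 fell (12.9%), the falls at a share no larger than the 15.0% of all tested genes, and the median difference was -0.09. Rrm2, the small subunit of ribonucleotide reductase, rose on both of its probes, by 1.13 and 0.84 (limma adjusted p = 0.00187 and 0.00376). Lig1, which joins Okazaki fragments, fell by 0.75 on 1 of 4 probes, Pold1, the catalytic subunit of DNA polymerase delta, by 0.68, and Cdt1, a licensing factor of replication origins, by 0.52 on the log2 scale (limma adjusted p = 0.00423, 0.00757 and 0.0210). The other Lig1 probes were at -0.44, -0.24 and -0.10 and did not pass. The other gene that fell, named after its value was seen, was Pole.

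For the series as a whole, the array detected 9774 to 11103 probes on the DKO arrays and 10740 to 11227 on the control arrays. Nabp2 fell in DKO by its brighter probe (log2 difference -1.68, SE 0.27, limma adjusted p = 0.00198), while its other probe did not pass and Nabp1 was not detected on any array. All 11 GMP markers on the array were detected, with a summed normalized intensity of 147848 to 153061 in DKO and 152067 to 166754 in control, and 1, Fcgr2b, was higher while 2, Cd34 and Mpo, were lower in DKO, all 3 named after their values were seen. The Mpo probes that passed were at -1.04 and -0.63, while its other probe was at 0.19 and did not pass. Fcgr2b passed by a probe at 0.63, and its other probes, at 0.45 and 0.29, did not pass. Other myeloid markers moved with the groups. Of 10 tested monocyte, macrophage and dendritic cell markers 9 were lower in DKO, with a summed intensity of 3953 to 5877 in DKO against 10253 to 13661 in control, and 6 of 10 tested neutrophil markers were higher, with 44632 to 60722 in DKO against 36804 to 40886 in control. The other 4 neutrophil markers tested did not pass, Ngp at 0.98, Ltf at -0.38, Camp at -0.40 and S100a8 at -0.04. Cd74 was detected on no DKO array and Stfa1 on no control array. Each therefore entered the test only through the group where it was high. All of these genes were named after their values were seen. Lymphoid markers were lower for 3 of 3 tested genes (9514 to 12953 in DKO and 16655 to 19148 in control), with the T and B cell markers Cd3e, Cd3g, Cd8a and Ms4a1 not detected on any array. The 3 were Cd79b, Nkg7 and Rag1, of 12 lymphoid markers on the array, named after their values were seen. Nkg7 was the brightest of them, with log2 means of 13.23 in DKO and 13.88 in control. Rag1 was detected on no DKO array and so entered the test only through the controls. Erythroid and megakaryocyte markers were lower for 2 of 10 tested (2964 to 6302 in DKO and 3619 to 4899 in control, Gata1 not detected on any array). The genes were Slc4a1 and Epor, named after their values were seen. Both were detected on no DKO array and on 4 of 4 control arrays, so they entered the test only through the controls. Basophil, mast cell and eosinophil markers were lower for 1 of 8 (6909 to 19950 in DKO and 12913 to 25758 in control), and DKO 1 and DKO 4 stood low on this list, with median deviations of -1.15 and -1.05 against 0.21 and 0.68 on DKO 2 and DKO 3. Of all tested genes 15.0% were lower and 11.8% higher in DKO, so the lower counts in the GMP, erythroid and megakaryocyte, and basophil, mast cell and eosinophil lists were near that background. The part of cell composition in the histone differences was not tested.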

How the data were processed

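Total RNA was measured on 8 single-colour Illumina MouseRef-8 v2.0 arrays. The deposited intensity table is linear, with a single value for each probe on each array, and its values show neither background subtraction nor normalization. Each deposited intensity has a detection p-value beside it, per the file headers; no source used here gives how it was computed. The submitters' processing notes name GenomeStudio, with no version. A second deposited table holds log2 values that the authors had processed. Set against the intensities, its differences between arrays followed those of quantile-normalized log2 intensities (r from 0.9991 to 0.9995, slopes 0.961 to 0.966), with column medians of -0.0044 to -0.0005, and its exact centring is unknown. It served as an alternative only. The 10 further columns of the intensity table are empty.

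Normalization used neqc (limma 3.58.1, R 4.3.3), that is normexp background correction with control statistics taken from the detection p-values, an offset of 16 and quantile normalization. Testing was limited to probes detected at p under 0.05 on 4 or more of the 8 arrays, by lmFit and eBayes with no covariates. P-values were adjusted by Benjamini-Hochberg over all 10856 of them. Of 25697 probes, 23978 had 1 gene symbol, 0 several and 1719 none. All 51 histone genes matched RefSeq (GRCm38.p6) by gene identifier. No build is named for the array, so only promoter sequences carry coordinates. For a probe detected on no array of a group, the fold is a lower bound, from the mean of the group with signal over, per array, the lowest detected signal or the probe's own where that was higher. Summed marker intensities are sums of normalized intensities on the linear scale. The number of arrays limits the precision.

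The histone genes and the lists were chosen with earlier results of these data known. Every histone gene with a detected probe is named. Those past the threshold, and in each family the probe with the highest mean, are given on every array. Up to 4 genes with the smallest p are named from each list. Alternatives were other background corrections, arrays aligned by medians, the authors' values, other filters, other variance models, array weights, a block for replicate number, a 1.5-fold minimum, and leaving out arrays. The procedure was tested on simulated data.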

Additional observations from a re-analysis of the deposited data

Results flagged for a closer look

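Within groups of 4 arrays, 10 of the 94 histone probe and group combinations looked at had 1 array far from the other 3. The cut-off used would flag about 1 in 20 if values were independent and normally distributed. Histone probes share arrays, and often sequence, so they are not independent. The share over all tested probes is not given here, so no excess over chance can be read from this count. In 7 of them the array was control 3, low in each case, with log2 values of 9.37 for H4c6, 9.46 for H4c9, 8.14 for H4c12, 7.22 for H4c8, 10.11 for H2bc11, 8.97 for H2bc15 and 6.03 for H2bc3. The nearest other control array read 10.15 for H4c6, 10.21 for H4c9 and 10.93 for H2bc11. In H2ac21 the low array was DKO 3 at 12.94. Control 2 was low at 14.31 in H2ac20 and at 14.43 in H2ac10, both among the very bright H2A probes, where the nearest other control arrays read 14.47 and 14.52.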

How the results depend on the processing

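H2bc4 and H2ac18 kept their call under every alternative that tested them but a minimum change of 1.5-fold (limma adjusted p = 0.234 and 0.402), and H1f2, H4c6 and H4c9 under every one but that minimum and the alignment of arrays by medians. The H2ac18 difference of -1.35 became -0.78 with normexp at offset 50, -0.54 without background correction and -0.50 in the authors' values, smaller than that of H2bc4 in each (-1.12, -1.02 and -0.98). That alignment moved the median of all tested probes by -0.40, and gave 148 higher and 2335 lower probes, 0 histone genes higher and 18 lower. The histone medians became -0.34 for all probes, -0.022 for H1, -0.87 for H2B, -0.38 for H3 and -0.37 for H4, the last of opposite sign to its main value. The 1.5-fold minimum left 100 higher and 155 lower probes and 0 histone genes either way. Array weights gave 9 lower histone genes, where 14.5% of all tested probes were lower. With only probes detected at 0.01 on all 8 arrays, the H1 median rested on H1f2 alone and was 1.08, and H1f5 and H2ac18 were not tested. The median SD within groups, 0.36, became 0.23 when background was not corrected and 0.22 in the authors' values. H1f5 also did not pass with no filter on dim probes (limma adjusted p = 0.0589) or without DKO 1 and DKO 2 together (0.0899). Leaving out 1 array at a time gave 665 to 1161 higher and 864 to 1354 lower probes, and 3 to 4 higher and 2 to 9 lower histone genes. The same ranges were -0.14 to 0.01 for the median of all histone probes, -0.06 to 0.04 for H2A, -0.13 to 0.07 for H3 and -0.04 to 0.26 for H4, each of which spans 0, and -0.62 to -0.30 for H2B. The causes of these shifts were not tested.

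Deviations from the group means of same-numbered arrays correlated at 0.19, 0.03, -0.11 and 0.20. Replicates 1 and 4 correlated best with their own number, and replicates 2 and 3 with another number. Such low correlations cannot settle whether the replicate numbers pair the samples, and the main fit used no pairing. With the replicate number as a block there were 1102 higher and 1318 lower probes, and 3 higher and 5 lower histone genes, with H1f1 and H2ac8 added.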
